A study of Mus musculus with 6 samples.

Results

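Tropomyosins are coiled-coil proteins that lie end to end along actin filaments. In the mouse they are encoded by Tpm1, Tpm2, Tpm3 and Tpm4, and the gene Tpm3-rs7 is an intronless related sequence of Tpm3. These 5 genes were taken from the 43309 genes of the count table by symbol, through their Ensembl identifiers, and all 5 passed the filter that left 16823 genes for testing. They were selected with their values in the comparison of the 2 groups of libraries already known, so their values in that comparison are given as a description, without a p-value.

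The libraries were TruSeq Stranded mRNA libraries from mouse embryonic stem cells (mESCs) of strain J1 (129SV), grown in medium with serum on gelatin, with no feeder cells. The control group had 3 libraries, of genotype Zbtb24 wild-type (2lox/+), and the other group 3 libraries labelled Zbtb24 knockout (1lox/1lox), each made from 2 µg of total RNA with 8 PCR cycles. The study describes the lines of both genotypes as independently derived clones, with n = 3 in each group, and 1lox is the allele left after loxP sites recombine.

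The control libraries held 26987179 to 27754105 counts each and the others 25042261 to 28838924. Zbtb24, the targeted gene, was counted 510, 512 and 489 times in control and 888, 925 and 1039 times in the other group. This goes against the label, although a count over the whole gene does not show the deleted part, and the second group is therefore called the libraries labelled knockout throughout. Of 10 markers of embryonic stem cells, 9 were called higher and 1 lower in that group by the edgeR test. Of all genes tested, 34.4% were called higher and 35.2% lower. The summed level of the 10 markers ran from 5123 to 5233 cpm (counts scaled to a common library size) in control and from 6524 to 6569 cpm in the other group. The tissue label was thus borne out by its markers in both groups.

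A tropomyosin molecule is a dimer that covers several actin subunits of a filament and sets which other proteins can bind there. In striated muscle it holds the troponin complex and blocks myosin until calcium is released. In other cells each gene yields several isoforms, through alternative promoters and alternative exons, which mark different filament populations such as stress fibres, the cell cortex and short filaments behind membranes. Tpm1 and Tpm2 are best known for their muscle and stress fibre isoforms, and Tpm3 and Tpm4 for short isoforms of the general cytoskeleton. A retrogene such as Tpm3-rs7 arises when a spliced mRNA is copied back into the genome, so that it lacks introns and comes to lie away from the promoter of its parent.

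All positions are on mm10 (GRCm38), the build the reads were mapped to. Tpm1 (ENSMUSG00000032366) lies at chr9:67022590-67049406 on the minus strand and has 21 annotated transcripts. Tpm2 (ENSMUSG00000028464) lies at chr4:43514711-43523765 on the minus strand, with 6 transcripts. Tpm3 (ENSMUSG00000027940) lies at chr3:90072649-90100902 on the plus strand, with 16 transcripts, and Tpm4 (ENSMUSG00000031799) at chr8:72134975-72153142 on the plus strand, with 2. Tpm3-rs7 (ENSMUSG00000058126) is a single exon of 2147 bases at chr14:113314608-113316754 on the plus strand, annotated as a protein-coding retrogene. No annotated gene overlapped Tpm1, Tpm2, Tpm3 or Tpm3-rs7, and Gm16091 and Gm26586 overlapped Tpm4 on the opposite strand.

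Tpm3-rs7 was nearly the same in sequence as a short coding transcript of Tpm3. That transcript has 2230 bases in 8 exons, and 2105 bases of the copy aligned to it, with all 7 exon junctions inside the alignment. Of 2108 aligned columns 2089 were identical (99.1%), and the rest held 13 substitutions and 3 gaps of 6 bases in all. Both coding sequences had 248 codons, and no stop codon lay inside that of the copy. Only 3 of the substitutions were in the coding sequence, and all 3 fall in the first exon of the Tpm3 transcript, upstream of its first junction. With positions counted from 1 at the first coding base and the Tpm3 base first, they were G72A, which keeps the amino acid, and G98A and G127A, which change it. The stretch from coding base 52 to 147, at chr14:113314727-113314822 in the copy, is shown because it holds every coding difference by which a read can be assigned to the copy or to its parent, with the differing bases in capitals.
Tpm3-rs7: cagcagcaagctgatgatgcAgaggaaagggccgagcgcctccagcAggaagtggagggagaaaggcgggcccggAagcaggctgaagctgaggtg
Tpm3: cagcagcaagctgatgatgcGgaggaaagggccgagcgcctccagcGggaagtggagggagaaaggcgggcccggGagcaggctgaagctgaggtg

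The other pairs of the family were much less alike. Over the coding sequences of 248 codons, Tpm3 shared 76.4% of its bases with Tpm1 and 73.5% with Tpm4, against 99.6% with its copy. Tpm1 and Tpm4 shared 76.6%, and the copy shared 74.9% with Tpm1 and 72.2% with Tpm4. Tpm2 had no transcript of 248 codons and was left out of this comparison.

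The sequence bears on what could be counted, since the study discarded fragments that mapped to multiple locations. Of the 2072 windows of 76 bases, the length of 1 read, along the copy, 1212 (58.5%) occurred exactly in a Tpm3 transcript and 860 (41.5%) did not. A read spanning 434 of the exact windows (35.8% of them) would cross an exon junction in Tpm3 but not in the copy. Seen from the Tpm3 transcript, 1212 of 2155 windows (56.2%) occurred in the copy. When up to 2 mismatches but no gaps were allowed, the share of the copy's windows with a match in Tpm3 was 86.1%, and 288 windows (13.9%) differed by more. Those 288 include windows that span the 3 gaps, which hold only 6 bases in all. A fragment has a pair of reads, so it can be placed by either, and the windows were compared with annotated transcripts and not with the genome. The reference bases are those of the mm10 assembly, and the J1 cells are of another strain, whose own bases at these positions were not seen.

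**Figure D1:**
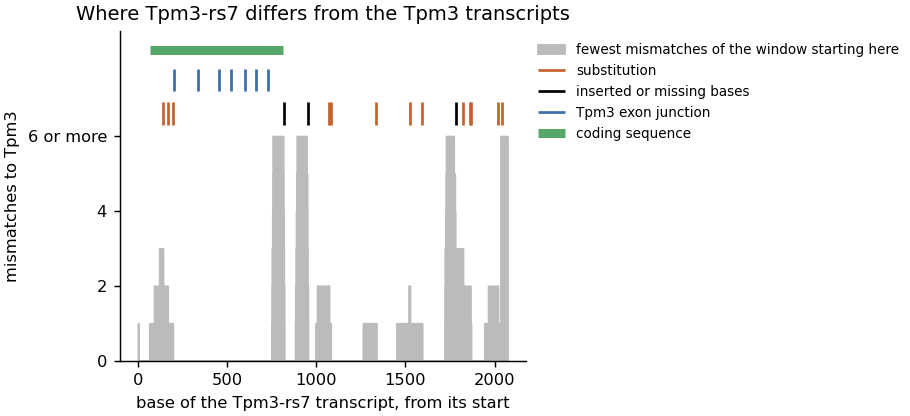
Map of the Tpm3-rs7 transcript from its first base. The upper marks give the coding sequence, the 7 Tpm3 exon junctions, the 13 substitutions and the 3 gaps, and the grey profile gives, for the 76-base window starting at each base, the fewest mismatches to any Tpm3 transcript compared without gaps, drawn up to 6. The profile is at 0 for 1212 of 2072 windows, and its high peaks stand before the gaps and at the end of the transcript.

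None of the windows of the longest transcripts of Tpm1 (2815 windows) and Tpm2 (2100) occurred in a transcript of another gene. In Tpm4, 251 of 2053 windows (12.2%) were shared, with Gm26586 and the pseudogene Gm7809. Tpm3 was as exposed as its copy in the short coding transcript, as given above, and less so in its longest transcript, a retained-intron form of 2374 bases that shared 317 of 2299 windows (13.8%), all with Tpm3-rs7. Apart from Tpm3-rs7, 11 processed pseudogenes resembled a member over at least 200 bases at 80% identity or more. Of these, Gm4157, Gm7839 and Gm7848 also held some of the 1212 windows that the copy shared exactly with Tpm3, and they were not in the count table. Of the 4 pseudogenes in the count table, Tpm3-rs2, Gm15693 and Gm12131 had 0 counts in all 6 libraries. Gm7809, which is 96.8% identical to Tpm4 over 742 bases, had 19, 14 and 10 counts in control and 1, 3 and 4 in the libraries labelled knockout.

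Of the 5 members, Tpm3-rs7 was the one that was higher in the libraries labelled knockout, and the 4 intron-containing genes were lower. Levels within a gene are given here as cpm after scaling by the trimmed mean of M values (TMM), and fold changes come from the fit over all genes. All 5 members were called at a false discovery rate of 0.05 by edgeR's quasi-likelihood test, 4 lower and 1 higher, where 69.5% of all genes tested were called, 34.4% higher and 35.2% lower. None of the 5 overlapped between the groups, nor did 71.5% of all genes tested. Nothing is read from these counts, because the members were selected on this same comparison.

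Tpm1, which encodes alpha-tropomyosin, had 7490, 7175 and 7587 counts in control and 2098, 1962 and 2411 in the labelled-knockout libraries. On the scaled level these were 266, 261 and 276 cpm in control and 80.3, 79.7 and 85.4 cpm in the other group. The groups were far apart, with a spread of 2.90% (coefficient of variation) in control and 3.82% in the other group. The log2 fold change was -1.71 ± 0.0295 (SE), a level 3.27-fold lower.

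Tpm2, which encodes beta-tropomyosin, was the least abundant of the 4 intron-containing genes in both groups. It had 772, 822 and 876 counts in control and 254, 221 and 275 in the labelled-knockout libraries. The scaled levels were 27.4, 29.9 and 31.9 cpm against 9.73, 8.98 and 9.74 cpm, and its spread in control, 7.53%, was the widest of the 5 members. The log2 fold change was -1.65 ± 0.0625 (SE), or 3.14-fold lower. The difference between the fold changes of Tpm1 and Tpm2 was smaller than the SE of Tpm2 plus that of Tpm1.

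Tpm4, a gene of short cytoskeletal isoforms, had 4193, 4256 and 4157 counts in control and 2019, 1878 and 2096 in the libraries labelled knockout. Its scaled levels were 149, 155 and 151 cpm and 77.3, 76.3 and 74.2 cpm. All 3 libraries labelled knockout were well under every control library, with a log2 fold change of -0.999 ± 0.0296 (SE), or 1.998-fold lower. Tpm4 lies on chromosome 8, where the 819 genes that averaged 10 counts or more had a median log2 fold change of -0.20, and within 1 Mb of it 26 of 47 tested genes were called lower and 9 higher, with a median of -0.18. Its own fold change was thus larger than the median of its surroundings, and the part of the chromosome in it was not tested.

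Tpm3, the parent of the copy, was the most abundant member in every library. It had 12361, 11839 and 12090 counts in control and 7869, 7579 and 8744 in the libraries labelled knockout. These were 439, 431 and 440.4 cpm in control and 301, 308 and 309.7 cpm in the other group. The log2 fold change was -0.51 ± 0.0238 (SE), or 1.43-fold lower, the smallest of the 5.

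Tpm3-rs7 was counted 100, 98 and 89 times in control and 2677, 2569 and 2987 times in the labelled-knockout libraries. The scaled levels were 3.55, 3.57 and 3.24 cpm in control and 103, 104 and 106 cpm in the other group. Every library labelled knockout was thus far above every control library, while the spread within a group was 5.32% and 1.59%. The log2 fold change was 4.91 ± 0.0552 (SE), a ratio of 30.2, and 20 of the 16823 genes tested had a larger rise.

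**Figure D2:**
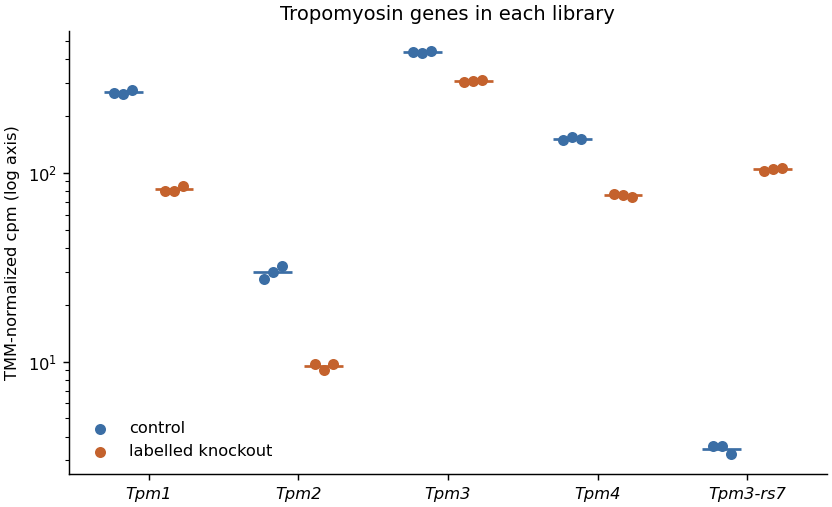
TMM-normalized cpm of the 5 tropomyosin genes on a log axis, with 1 point per library and a bar at the mean of each group of 3. Tpm1, Tpm2, Tpm3 and Tpm4 are lower in all 3 libraries labelled knockout than in all 3 control libraries, and Tpm3-rs7 rises from between 3.24 and 3.57 cpm to between 103 and 106 cpm.

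The copy was then set against its parent within each library, which needs no scaling between libraries. There were 0.809, 0.828 and 0.736 Tpm3-rs7 fragments per 100 Tpm3 fragments in control, and 34.02, 33.9 and 34.2 in the labelled-knockout libraries. The means were 0.791 ± 0.0484 (SD, n = 3) and 34.03 ± 0.132 (SD, n = 3). The ratio was therefore nearly the same in the 3 lines of a group and differed between the groups by 5.42 on the log2 scale. As a share of the fragments of both genes, the copy made up 0.785% ± 0.0477 and 25.4% ± 0.0736 (SD, n = 3).

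The sum of the pair changed much less than either gene. Tpm3 and its copy together had 440.3 ± 5.10 cpm in control and 410.5 ± 6.03 cpm in the libraries labelled knockout (SD, n = 3). From control to labelled knockout the mean of Tpm3 fell by 130.5 cpm while that of the copy was 100.8 cpm higher, and the sum fell by 29.8 cpm. Counted as 1 gene, an alternative chosen after the data were seen, the pair had a log2 fold change of -0.10 ± 0.0234 (SE) in place of -0.51 for Tpm3 alone. Whether fragments of one were counted for the other was not tested, since the mapped reads were not analysed here, and the shared windows are those given above.

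**Figure D3:**
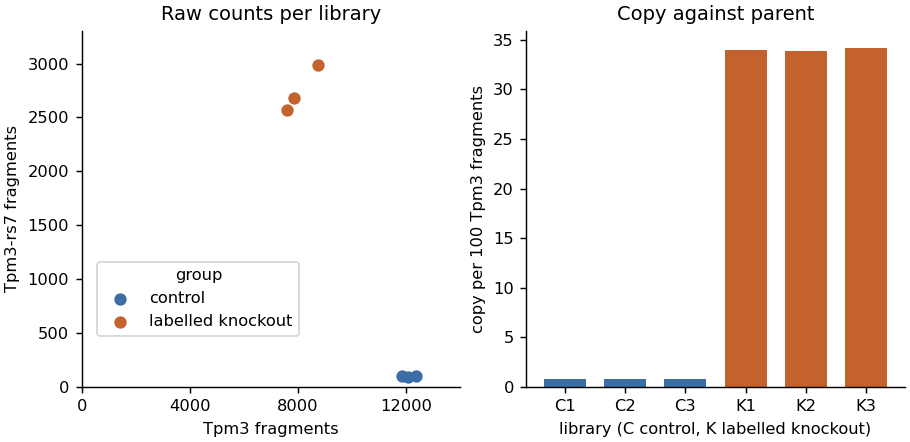
Left, raw Tpm3-rs7 fragments against raw Tpm3 fragments, 1 point per library. Right, bars from 0 of Tpm3-rs7 fragments per 100 Tpm3 fragments in each library (C control, K labelled knockout): the control bars are under 1 and those of the libraries labelled knockout are between 33.9 and 34.2.

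Levels were compared between genes only per length, as TMM cpm per kilobase of each gene's longest transcript. These lengths were not corrected for shared windows, 58.5% of those of the copy and 56.2% of those of Tpm3's short coding transcript. Tpm1 and Tpm2 shared none. Since fragments at multiple locations were discarded, levels and shares of Tpm3 and its copy may not be comparable with those of the other genes. In control the order was Tpm3 (184 ± 2.19), Tpm1 (92.7 ± 2.68), Tpm4 (71.3 ± 1.39), Tpm2 (13.7 ± 1.03) and Tpm3-rs7 (1.61 ± 0.0857; SD, n = 3). In the libraries labelled knockout it was Tpm3 (129 ± 1.86), Tpm3-rs7 (48.5 ± 0.770), Tpm4 (35.7 ± 0.733), Tpm1 (28.3 ± 1.08) and Tpm2 (4.36 ± 0.201). With these lengths the copy went from the lowest to the second place and Tpm1 from the second to the fourth, and no neighbours in either order overlapped in their 3 values.

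The summed level of the 5 genes was 363 ± 4.51 cpm per kilobase in control and 246 ± 2.70 in the libraries labelled knockout (SD, n = 3), a difference of -0.56 on the log2 scale. With these lengths Tpm3 held 50.6% ± 0.474 of this sum in control and 52.5% ± 0.288 in the other group, a direction that turned with the length of all exons merged (37.0% ± 0.508 against 33.7% ± 0.255). The share of Tpm1 went from 25.5% ± 0.429 to 11.5% ± 0.341, that of Tpm4 from 19.6% ± 0.505 to 14.5% ± 0.456 and that of Tpm2 from 3.76% ± 0.251 to 1.77% ± 0.0833. The share of the copy went from 0.443% ± 0.0288 to 19.7% ± 0.0999, or from 0.830% ± 0.0527 to 32.5% ± 0.266 with merged exons.

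These levels depend on the length chosen, because the annotated transcripts of Tpm1 and Tpm3 differ widely. With the length of all exons merged, which is 6485 bases for Tpm1, 6085 for Tpm3 and 2203 for Tpm4, the control order became Tpm3 (71.8 ± 0.856), Tpm4 (68.9 ± 1.34), Tpm1 (41.3 ± 1.196), Tpm2 (10.2 ± 0.770) and Tpm3-rs7 (1.61 ± 0.0857). In the libraries labelled knockout Tpm3 then had 50.3 ± 0.726 and the copy 48.5 ± 0.770 cpm per kilobase (SD, n = 3), without overlap. The place of Tpm1 against Tpm4 in control is therefore not settled by these counts, and which isoforms were present cannot be read from counts per gene.

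**Figure D4:**
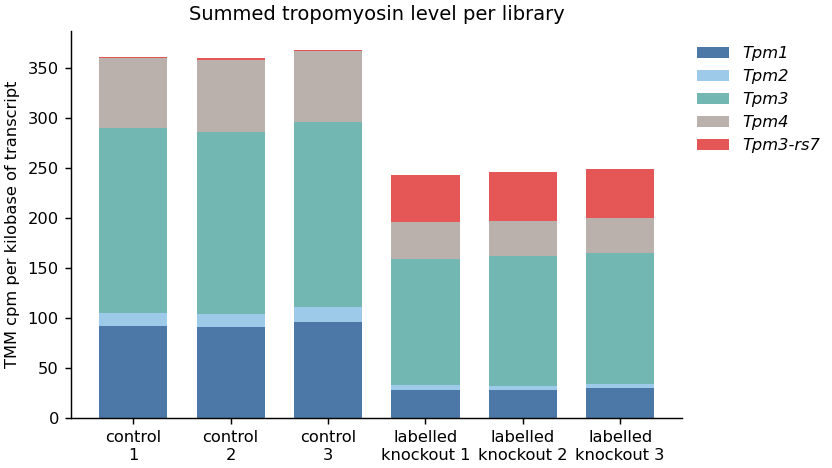
Stacked bars, from 0, of TMM cpm per kilobase of the longest transcript for the 5 genes in each of the 6 libraries. The control bars reach 360 to 368 with almost none of it from Tpm3-rs7, and those of the libraries labelled knockout reach 243 to 249, with a band of 47.7 to 49.3 from Tpm3-rs7.

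The region around Tpm3-rs7 held few expressed genes. No gene within 1 Mb of it passed the filter, and the nearest that did were Slitrk5, 1631 kb before it, and Mir17hg, the host of a microRNA cluster, 1726 kb after it. Slitrk5 was at 1.09 ± 0.263 cpm in control and 1.59 ± 0.288 in the libraries labelled knockout (log2 fold change 0.56 ± 0.207, Benjamini-Hochberg adjusted p = 0.0156 by the edgeR test). Mir17hg was lower, at 55.6 ± 0.692 cpm against 42.1 ± 2.00 (log2 fold change -0.40 ± 0.0386, adjusted p = 4.2e-13 by the edgeR test). The rise of the copy was thus far larger than the change at either neighbour.

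At Tpm3 the neighbours were close. The gene 4933434E20Rik, 4.302 kb before it, was at 39.5 ± 0.767 cpm in control and 38.9 ± 0.706 in the libraries labelled knockout and was not called (log2 fold change -0.02 ± 0.0406, adjusted p = 0.685 by the edgeR test). Nup210l, 3.23 kb after it, was lower, at 2.74 ± 0.296 against 1.199 ± 0.253 cpm (log2 fold change -1.201 ± 0.173, adjusted p = 3.5e-08 by the edgeR test). Within 1 Mb of Tpm3 the median log2 fold change was -0.04 over 65 tested genes. It was 0.04 over 17 genes around Tpm1 and 0.00 over 32 genes around Tpm2.

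The promoter windows of RefSeq (GRCm38.p6, 250 bases before to 50 after each start) held 5 windows for the members, 1 each for Tpm1, Tpm2 and Tpm4 and 2 for Tpm3. For Tpm3-rs7 there was no entry. They were searched on both strands for the CArG box bound by serum response factor (SRF), the TEAD motif GGAATG, the TATA box sequence TATAAA, and the ZBTB24 motif CAGGACCT. One match was found, GGAATG on the strand of the gene from 56 to 51 bases before the start of Tpm1. Of all 32851 windows, 14.7% held GGAATG, 13.6% TATAAA, 2.0% CAGGACCT and 1.6% a CArG box. A match is a description of these letters only. The 250 bases before the Tpm1 start, at chr9:67049214-67049463 on the minus strand, are shown with the match in capitals, as Tpm1 had the largest fall of the members.
Tpm1 upstream: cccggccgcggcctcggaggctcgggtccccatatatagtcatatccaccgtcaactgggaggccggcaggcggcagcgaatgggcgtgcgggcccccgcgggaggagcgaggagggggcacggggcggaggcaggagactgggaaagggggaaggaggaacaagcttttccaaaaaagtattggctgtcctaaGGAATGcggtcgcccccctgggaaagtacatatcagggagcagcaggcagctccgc

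The other genes with which tropomyosins act on actin filaments were taken as a list of 71, of which 67 passed the filter. The list was chosen with earlier results of these data known, so its calls are a description and no test of the list. Of the 67, 38 were called lower, 20 higher and 9 were not called, so that 86.6% were called, with a median log2 fold change of -0.15. Among the 38, Tnnt3, Tnni2 and Myocd reached the filter of 10 counts in control libraries only, the group where they are high. Over all genes tested 69.5% were called, 34.4% higher and 35.2% lower, and the median was -0.00036. Of the 11115 genes that averaged 100 counts or more 77.1% were called, 4623 higher and 3951 lower. The counts by role below stand beside these shares. Among the partners named here that averaged 100 counts or more, the largest falls were in Acta1, Acta2, Tagln and Cnn1, contractile genes that accompany Tpm1 and Tpm2 in muscle and stress fibres. In bulk samples, fewer cells of a type and less RNA per cell cannot be told apart.

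Of the actins, the filament proteins themselves, all 5 tested genes were lower. Acta1, skeletal muscle actin, fell from 22.6 ± 0.842 to 0.407 ± 0.131 cpm, with 608, 637 and 629 counts in control and 7, 13 and 12 in the libraries labelled knockout (log2 fold change -5.78 ± 0.127). Acta2, smooth muscle actin, fell from 28.1 ± 1.04 to 1.40 ± 0.157 cpm (-4.32 ± 0.0916). The cytoplasmic actins fell less. Actb went from 2596 ± 11.9 to 2461 ± 103 cpm (-0.08 ± 0.0225) and Actg1 from 2546 ± 24.9 to 2034 ± 51.1 cpm (-0.32 ± 0.0212). How far sequence shared among the actin genes affected their counts was not tested.

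Of 7 genes for caldesmon, calponins and transgelins, which bind along filaments beside tropomyosin, 4 were lower, 1 higher and 2 not called. Tagln, a smooth muscle marker, fell from 111 ± 5.36 to 6.03 ± 0.299 cpm (-4.20 ± 0.0530), Cnn1 from 15.4 ± 0.574 to 1.89 ± 0.129 cpm (-3.02 ± 0.0991) and Cald1, caldesmon, from 101 ± 2.50 to 30.2 ± 0.995 cpm (-1.74 ± 0.0368). Cald1 and Tpm1 thus had nearly the same fold change. Of 12 tested tropomodulins, leiomodins and troponins, which cap filament ends or hold tropomyosin in muscle, 7 were lower, 3 higher and 2 not called. Those lower included 5 troponin genes with few counts, averaging from 5.67 to 38.3 per library. The most counted of these was Tnnt3, with 81, 63 and 74 counts in control and 6, 3 and 3 in the labelled-knockout libraries (-4.07 ± 0.282). Tnni2 had 11, 10 and 10 counts in control and 1, 0 and 2 in the other group. Both Tnnt3 and Tnni2 passed the filter through control libraries only. The tropomodulin Tmod2 was also lower (-0.22 ± 0.0714). Those higher included Tnnt1, which rose from 4.19 ± 0.353 to 7.66 ± 1.49 cpm (0.88 ± 0.110), and Tnni3, from 3.66 ± 0.453 to 4.81 ± 0.456 cpm (0.39 ± 0.116), both troponin subunits of striated muscle.

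Myosin II is the motor that tropomyosins admit to or keep from filaments. Of 9 genes for its chains and their kinase, 5 were lower, 2 higher and 2 not called. The kinase gene Mylk was among those higher (0.70 ± 0.280), but it had few counts and its groups overlapped. It had 13, 19 and 15 counts in control and 25, 29 and 19 in the libraries labelled knockout. Myl9, a regulatory light chain of smooth muscle and stress fibres, fell from 24.96 ± 0.713 to 6.23 ± 0.618 cpm (-1.996 ± 0.0685), and Myh9, the main heavy chain outside muscle, from 569 ± 14.2 to 382 ± 9.65 cpm (-0.57 ± 0.0244). Of 11 severing and bundling proteins, 9 were lower and 2 higher. Gsn, the severing protein gelsolin, fell from 28.1 ± 0.694 to 10.4 ± 0.550 cpm (-1.43 ± 0.0581) and Flnc, the crosslinker filamin C, from 101 ± 2.86 to 50.7 ± 0.399 cpm (-0.998 ± 0.0331).

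Nucleators of filaments moved in both directions. Of 3 formins, which nucleate the unbranched filaments that tropomyosins cover, 2 were lower and 1 higher, with Diaph1 falling from 281 ± 6.12 to 184 ± 6.31 cpm (-0.61 ± 0.0267). Of 9 Arp2/3 subunits, which nucleate branched filaments, 7 were higher and none lower, with Arpc4 rising from 103 ± 3.18 to 147 ± 4.54 cpm (0.52 ± 0.0296). Of these 9 genes 3 lie on chromosome 1, where the 980 genes that averaged 10 counts or more had a median log2 fold change of 0.50, and 4 of the 6 others were higher. Arpc4 is 1 of these 4 and lies on chromosome 6, where the median over 694 genes was 0.16. The rest of the 4 rose by only 0.08 to 0.21. The parts of chromosomes 1 and 6 in this were not tested.

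Among the regulators of the family, Srf, the transcription factor of many muscle and actin genes, fell from 82.6 ± 1.68 to 61.4 ± 4.37 cpm (-0.43 ± 0.0363), and its cofactor Mrtfa rose from 38.1 ± 1.25 to 44.0 ± 2.12 cpm (0.21 ± 0.0419). Of the 4 genes of this group 2 were lower and 2 higher. Of the 2 lower, Myocd had few counts, 10, 15 and 14 in control and 3, 3 and 5 in the libraries labelled knockout. It passed the filter through control libraries only. Of 5 splicing factors known for exon choice in tropomyosin transcripts, 3 were lower and 2 higher. Rbpms fell from 200.8 ± 6.87 to 127 ± 3.16 cpm (-0.66 ± 0.0282) and Mbnl1 rose from 18.6 ± 0.766 to 23.98 ± 0.598 cpm (0.37 ± 0.0528). Rbpms lies in the first 60 Mb of chromosome 8, where the median over 228 genes was -0.55. Of the NatB subunits, which acetylate the amino end of tropomyosins, Naa20 was slightly lower (-0.14 ± 0.0355) and Naa25 was not called. The adjusted p-values of the partner genes named as changed ran up to 0.024 by edgeR's quasi-likelihood test. Those of all partner genes counted as lower or higher ran up to 0.031 by the same test. As the list was chosen with earlier results of these data known, nothing is read from these p-values about the list.

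**Figure D5:**
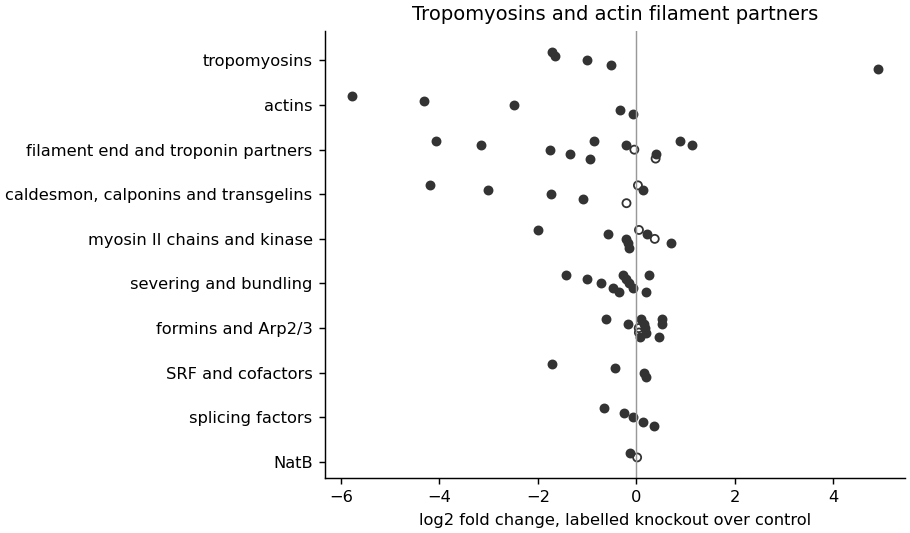
Log2 fold change of the 5 tropomyosin genes and of the 67 tested partner genes, 1 point per gene in rows by role, for labelled knockout over control. Filled points were called and open points were not, and the vertical spread within a row is only for display. Points far to the left are contractile genes such as Acta1 at -5.78 and Tagln at -4.20, and the single point far to the right is Tpm3-rs7 at 4.91.

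Markers of other cell types were counted beside the 35.2% of all genes called lower and the 34.4% called higher. All marker lists, that of embryonic stem cells included, were also chosen with earlier results of these data known, so their calls are a description. Of 9 tested fibroblast markers 7 were lower and none higher, and the summed level of the list ran from 61.7 to 64.4 cpm in control and from 13.96 to 14.5 cpm in the libraries labelled knockout, with Lum at 3 counts or fewer in every library. Without Col1a1, its most abundant member, the sum ran from 21.1 to 22.7 cpm and from 10.1 to 10.6 cpm. Of 10 trophectoderm markers 6 were lower and 3 higher, with summed levels from 434 to 455 cpm and from 121 to 126 cpm. That drop lay in the keratins Krt8 (226 ± 3.85 to 10.6 ± 1.34 cpm) and Krt18 (118 ± 4.74 to 6.47 ± 0.581 cpm), and without them the sum ran from 98.4 to 104 cpm and from 105 to 107 cpm. Of 7 tested muscle markers 4 were lower and 2 higher, from 57.2 to 61.6 cpm and from 51.5 to 52.0 cpm, and of 10 primitive endoderm markers 4 were lower and 3 higher, from 576 to 581 cpm and from 584 to 603 cpm, a called share (70%) at the 69.5% of all genes. Fibroblast markers and the keratins were thus lower in the same libraries as Tpm1, Tpm2 and Tpm4, and their part in those falls was not tested.

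The genes most like each member over the 6 libraries were sought among the 11114 others that averaged 100 counts or more, by the distance between centred values of log2(cpm + 1). For Tpm1 they included Liph (distance 0.0568, log2 fold change -1.71) and Zfy1 (0.0904, -2.34). For Tpm2 they were Pdlim2 (0.121), Psors1c2 (0.130) and Fxyd6 (0.135), and for Tpm4 Specc1 (0.0376), Ddhd2 (0.0431) and Gm9625 (0.0440). For Tpm3 they were Shcbp1 (0.0447), Cul4b (0.0457) and Ss18 (0.0460). No gene was as near to Tpm3-rs7, whose own log2 fold change was 4.91. The first were Mid1-ps1 (0.962, log2 fold change 13.1), with 0 counts in all control libraries, Olig1 (0.978, 5.63) and Apoa2 (1.28, 6.01). This distance includes the difference between the groups, on which the members were selected.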

How the data were processed

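The deposited values are raw counts of fragments per gene. Per the labels and the study's methods, the authors used CASAVA 1.8.2, removed rRNA reads with Bowtie2 2.1.0, mapped pairs of 76-base reads to mm10 with TopHat2 2.0.10 and counted GENCODE M4 genes with HTSeq 0.6.1, by strand, discarding fragments in multiple genes or at multiple locations. Fragments that mapped to more than 1 near-identical copy are therefore not counted, and whether others were placed on the wrong copy was not tested. Symbols, lengths and sequences came from GENCODE M21 on the same build, which matched 42425 of 43309 genes. The 16823 genes that reached 10 counts in 1 library or more were tested with edgeR 4.0.16 in R 4.3.3 (TMM, glmQLFit and glmQLFTest, Benjamini-Hochberg, false discovery rate at most 0.05, no covariate), which was tested on simulated data. In the text, values after ± are SD (n = 3) for cpm and SE for log2 fold changes. Sequences were compared with blastn 2.17.0 and Biopython 1.88. Alternatives were DESeq2 1.42.0, other scalings, filters and lengths, a replicate block, each library left out, and the copy added to Tpm3. The members and gene lists were chosen with earlier results of these data known. Named partners are those with the 2 largest absolute fold changes of each role among called genes averaging 100 counts or more, and always Actb, Actg1, Cald1 and Srf. Naa25, Lum, Col1a1, Krt8, Krt18, Tnnt3, Tnni2, Tmod2, Mylk and Myocd were named after their values were seen. PCR duplicates were not marked, so counting error is a minimum. Of the genes most like each member, the 3 nearest were named, except 1 that is not reported here.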

Additional observations from a re-analysis of the deposited data

How the results depend on the processing

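Of 124 recomputed values, 111 kept their direction and call, 12 moved and 1 turned direction. One of the 111 also shifted by more than 1.5 times: Tpm3 counted together with its copy had a log2 fold change of -0.10 in place of -0.51. With exon union length the summed level differed by -0.38 on the log2 scale, and the control shares were 21.3% for Tpm1, 5.27% for Tpm2, 37.0% for Tpm3, 35.5% for Tpm4 and 0.830% for Tpm3-rs7, which follows from the lengths themselves. With the same lengths, added after the data were seen, the difference in share between labelled knockout and control turned from 1.81 to -3.31 percentage points for Tpm3, and moved to -12.9 for Tpm1, -3.09 for Tpm2, -12.4 for Tpm4 and 31.7 for Tpm3-rs7. With library totals the summed level differed by -0.61. Allowing 2 mismatches and no gaps, 86.1% of the copy's windows matched Tpm3. Without 1 library at a time, the genes called ran from 11059 to 11304, the partners called higher from 17 to 19 and lower from 34 to 37, and the log2 fold changes from -1.74 to -1.69 for Tpm1, -1.70 to -1.60 for Tpm2, -0.52 to -0.50 for Tpm3, -1.01 to -0.98 for Tpm4 and 4.87 to 4.93 for Tpm3-rs7. The copy against its parent ran from 5.37 to 5.45 and the summed level from -0.57 to -0.55. DESeq2 called 10326 genes. Whether the replicate numbers pair the lines is not settled by the deviations of the libraries over 11115 genes, as all correlations were small. Same-numbered libraries correlated at 0.0062, 0.0715 and 0.0155, and the others at -0.0718 to 0.0541. Controls 2 and 3 correlated best with the library of their own number, and control 1 with labelled knockout 3 (0.0541). With the replicate block, 11801 genes were called and the members' values stood at -1.71, -1.65, -0.51, -0.999 and 4.91. In control, 89 to 100 counts of Tpm3-rs7 limit the precision of its ratio.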
